A study of Mus musculus with 14 samples.

Results

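Spp1 and 6 further genes known from profibrotic macrophages, Lgals3, Gpnmb, Trem2, Cd9, Fabp5 and Ctsd, were examined in both count tables, 7 of the 42396 genes listed. Spp1 leads the list because it was chosen by its measured level in these libraries, which stood higher in the labelled knockout and differed between the experiments. The members were chosen with their values in both experiments known, so their fold changes are given as a description with no test. All 14 hearts came from female FS6KD mice, which carry the Ndufs6 gt/gt knockdown of a respiratory complex I subunit on a mixed C57BL/6J and 129/Ola background, controls included. The knockout experiment held 4 hearts labelled Atf3+/+FS6KD and 4 labelled Atf3-/-FS6KD at 12 weeks, in which a large part of Atf3 had been deleted by CRISPR-Cas9 in fertilized eggs whose offspring were intercrossed, so that the deletion is not limited to heart muscle. For the AAV experiment, neonatal mice had received MyoAAV2, a muscle-directed adeno-associated virus, with a control short hairpin RNA (3 hearts, MyoAAV2-shCtrl by their label) or one against Atf3 (3 hearts, MyoAAV2-shAtf3 by their label), and the description reads as though these hearts were also taken after 12 weeks. RNA was taken from whole heart tissue, in which fewer cells of a type and less RNA per cell cannot be told apart.

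Spp1 encodes osteopontin, a secreted phosphoprotein that binds integrins and CD44 and is known as a marker of macrophages found in fibrotic heart, lung and liver. Macrophages of this kind commonly carry Trem2, a surface receptor for lipids and apoptotic cells that signals through the adaptor Tyrobp, together with Gpnmb, a glycoprotein of the lysosome and cell surface. They also carry Lgals3 (galectin-3, a lectin that binds beta-galactosides), Cd9 (a tetraspanin), Fabp5 (a carrier of fatty acids) and Ctsd (the lysosomal aspartic protease cathepsin D). None of the 7 genes is restricted to macrophages, and Cd9, Fabp5 and Ctsd are expressed by many cell types.

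The promoters of the 4 members with the largest fold changes in both experiments are shown first, since Atf3 is a factor of the ATF/CREB family that can pair with AP-1 proteins. Each run is 300 bases of RefSeq sequence on GRCm38.p6, 250 before and 50 after the start of the gene, 5′ to 3′ on the gene's own strand, and capitals mark the letters of a motif.
Spp1, chr5:104434861-104435160, plus strand: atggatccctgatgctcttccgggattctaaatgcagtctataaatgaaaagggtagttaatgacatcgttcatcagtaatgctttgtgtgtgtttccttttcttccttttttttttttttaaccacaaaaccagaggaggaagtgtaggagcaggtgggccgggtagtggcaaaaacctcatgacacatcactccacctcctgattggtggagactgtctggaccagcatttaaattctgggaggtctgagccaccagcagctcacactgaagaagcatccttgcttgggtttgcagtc
Lgals3, chr14:47373610-47373909, plus strand: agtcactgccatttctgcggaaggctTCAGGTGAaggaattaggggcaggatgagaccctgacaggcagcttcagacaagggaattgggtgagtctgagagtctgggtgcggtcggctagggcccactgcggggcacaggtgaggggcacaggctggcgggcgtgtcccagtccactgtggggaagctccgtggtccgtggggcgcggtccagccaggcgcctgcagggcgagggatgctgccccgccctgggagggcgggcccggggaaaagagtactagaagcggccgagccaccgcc
Gpnmb, chr6:49036268-49036567, plus strand: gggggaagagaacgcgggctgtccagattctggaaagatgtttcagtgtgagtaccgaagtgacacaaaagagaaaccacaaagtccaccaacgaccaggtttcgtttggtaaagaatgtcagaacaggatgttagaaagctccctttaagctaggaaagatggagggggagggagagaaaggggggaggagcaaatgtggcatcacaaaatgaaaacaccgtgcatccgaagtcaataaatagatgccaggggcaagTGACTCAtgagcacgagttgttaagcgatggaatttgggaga
Trem2, chr17:48346151-48346450, plus strand: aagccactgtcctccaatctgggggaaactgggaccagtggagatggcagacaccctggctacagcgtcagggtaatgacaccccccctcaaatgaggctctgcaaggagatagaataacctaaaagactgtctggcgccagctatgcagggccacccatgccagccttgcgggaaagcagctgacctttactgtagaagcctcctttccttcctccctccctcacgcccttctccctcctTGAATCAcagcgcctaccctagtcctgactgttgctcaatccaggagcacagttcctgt
On both strands, 5 motifs were searched for: the AP-1 motif TGANTCA, the cyclic AMP response element TGACGTCA, the C/EBP-ATF motif TGATGNAA, the E-box CACGTG and the M-box TCANGTGA, which MiT/TFE factors of lysosomal genes bind. Of 32851 promoters of this length, 7.81% held the AP-1 motif, 1.79% the cyclic AMP response element, 3.97% the C/EBP-ATF motif, 7.15% the E-box and 4.18% the M-box. The AP-1 letters stood at position 8 after the start in Gpnmb and 9 bases before the start in Trem2, and the M-box letters stood 224 bases before the start in Lgals3. None of the 5 motifs was found in the Spp1 window shown, in a second Spp1 window at a start further into the gene, or in the window of Cd9. The Ctsd window held the E-box 245 and 98 bases before its start, the latter inside an M-box that overlaps it. Promoters of 6 of the 7 members were matched, and Fabp5 was not. These matches are a description of letters in 1 window and say nothing on binding.

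Spp1 lies on mouse chromosome 5 (104435111 to 104441053, GRCm38.p6), Lgals3 on chromosome 14 (47373860 to 47386167), Gpnmb on chromosome 6 (49036518 to 49058182) and Trem2 on chromosome 17 (48346401 to 48352276), each on the plus strand and counted over its exons. Cd9 lies on chromosome 6, Fabp5 on chromosome 3 and Ctsd on chromosome 7. Spp1, Cd9 and Ctsd overlap other annotated genes (Gm42793, the antisense Gm28809 and Gm49369 among them), and their reads could be shared with these, for Spp1 and Ctsd with a gene on the same strand and for Cd9 with genes on the other strand, where the strand setting of the counting is not given. Trem2 is listed a second time as a copy on an alternate locus of the assembly with the same count in all 14 libraries, so its printed level is the share of 1 of the 2 entries.

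The knockout libraries held between 33914931 and 134920825 counts, with replicates 3 and 4 of both genotypes deeper than replicates 1 and 2, and the AAV libraries between 30085432 and 40534913. The count of Atf3, the targeted gene, did not follow the labels in either experiment. It was 25.8, 6.89, 6.91 and 6.35 CPM (library-scaled counts, TMM-normalised) in the libraries labelled Atf3+/+FS6KD and 25.6, 37.6, 22.7 and 14.3 CPM in those labelled Atf3-/-FS6KD. It was 10.1, 13.3 and 14.1 CPM in the libraries labelled shCtrl and 21.2, 12.1 and 16.5 CPM in those labelled shAtf3. A count over the whole gene includes exons outside a deletion and so checks the knockout label in part at best. The deposited columns of the AAV table carry names opposite to the labels, so every direction given for that experiment holds as the libraries are labelled and changes sign if the column names are right. Ndufs6 lay between 2.34 and 3.79 CPM in all 14 libraries, with no heart of normal Ndufs6 to set it against. All 8 macrophage markers (Adgre1, Csf1r, Mrc1, Cd68, C1qa, C1qb, C1qc and Fcgr1) were detected in every library, beside cardiomyocyte markers at a summed level of 31742 to 47703 CPM.

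The level of the members per kilobase of exon set Ctsd far above the others. In the libraries labelled Atf3+/+FS6KD its mean was 772 CPM per kb, against 17.2 for Cd9, 9.48 for Fabp5, 2.23 for Lgals3, 0.59 for Spp1, 0.45 for Gpnmb and 0.22 for the counted entry of Trem2. The libraries labelled Atf3-/-FS6KD held the members in the same order of mean level per kilobase, with Spp1 at 2.95 and Lgals3 at 4.87 CPM per kb. With its copy added, Trem2 was at 0.45 ± 0.15 CPM per kb in the labelled wild type, level with Gpnmb, and at 0.66 ± 0.07 in the labelled knockout (SD, n = 4 each), above the 0.60 of Gpnmb, so the place of these 2 genes in the order depends on the copy. The order of Spp1 and Gpnmb in the libraries labelled Atf3+/+FS6KD depended on the gene length: with the longest transcript in place of all exons, Spp1 was at 0.65 and Gpnmb at 0.78 CPM per kb.

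Spp1 was the member that differed most between the genotypes of the knockout experiment. Its level was 1.602, 0.77, 0.76 and 0.79 CPM in the libraries labelled Atf3+/+FS6KD, from 67, 25, 89 and 104 reads. It was 4.64, 6.64, 3.92 and 4.24 CPM in those labelled Atf3-/-FS6KD, from 164, 253, 460 and 530 reads. The lowest labelled knockout library stood above the highest labelled wild-type library, and in the labelled wild type 3 libraries lay close together with replicate 1 above them. The mean was 0.98 ± 0.42 CPM (SD, n = 4) against 4.86 ± 1.23 CPM (SD, n = 4), a 5.04-fold higher level (log2 fold change 2.33, SE 0.28). The value was 2.23 (SE 0.40) from the shallower replicates 1 and 2 alone and 2.40 (SE 0.17) from the deeper replicates 3 and 4 alone. The 25 reads of labelled wild-type replicate 2, the shallowest library of the experiment, left its level between 0.50 and 1.14 CPM (exact 95% Poisson interval, counting error only), which lay below all labelled knockout libraries.

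Spp1 lay in the other direction after the AAV. It was 6.52, 3.04 and 3.37 CPM in the libraries labelled shCtrl, from 270, 121 and 129 reads, and 0.74, 2.18 and 2.65 CPM in those labelled shAtf3, from 25, 68 and 78 reads. The groups did not overlap, but 1 library stood above the rest in the labelled controls and 1 stood below the rest in the labelled knockdown. The means were 4.31 ± 1.92 CPM for labelled shCtrl and 1.86 ± 0.99 CPM for labelled shAtf3 (SD, n = 3 each), a 2.35-fold lower level (log2 fold change -1.23, SE 0.42). Without labelled shCtrl replicate 1 the log2 fold change was -0.80, and without labelled shAtf3 replicate 1 it was -0.84. The difference between the log2 fold changes of the experiments, knockout minus AAV, was 3.56 (SE 0.56), and it lay between 3.13 and 3.90 over 25 alternatives with the groups as labelled. With the AAV groups exchanged, as the column names read, a setting added after the data were seen, it was 1.12 (SE 0.56). The libraries labelled shCtrl had more Spp1 than any labelled Atf3+/+FS6KD, and these control groups come from separate experiments.

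**Figure D1:**
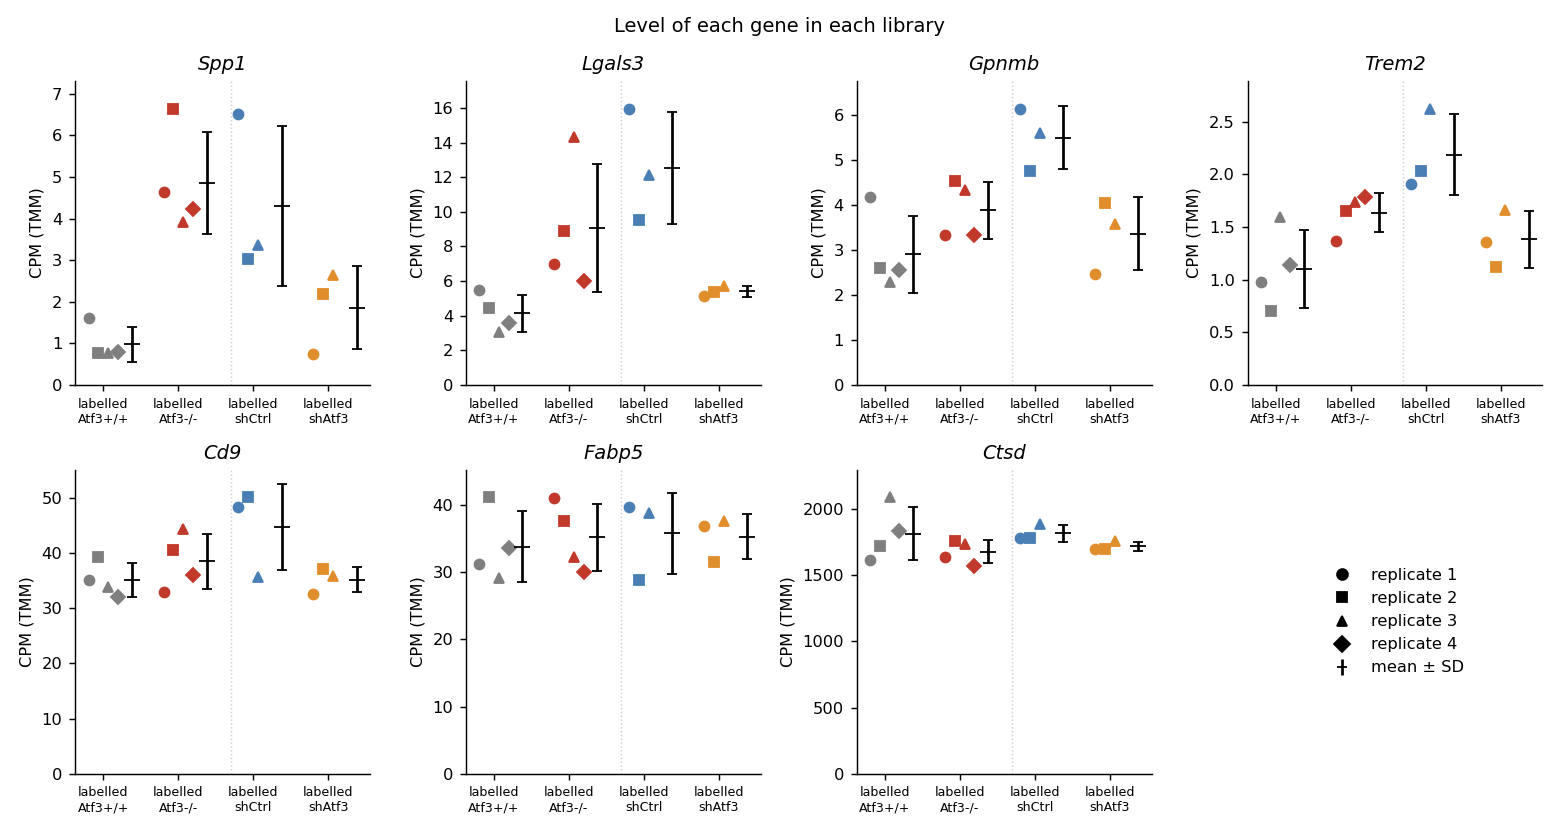
Level of each of the 7 genes in CPM (TMM-normalised, linear axes from 0) in each of the 14 libraries by labelled group, with the symbol giving the replicate number and black bars giving mean ± SD (n = 4 or 3). Spp1 and Lgals3 of the libraries labelled Atf3-/-FS6KD sit above all libraries labelled Atf3+/+FS6KD, whereas Fabp5 overlaps between all groups.

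Lgals3 showed the same order of groups as Spp1 in both experiments. Its level was 5.48, 4.43, 3.05 and 3.58 CPM in the libraries labelled Atf3+/+FS6KD and 7.01, 8.88, 14.3 and 6.02 CPM in those labelled Atf3-/-FS6KD. The genotypes did not overlap, and replicate 3 of the labelled knockout stood highest. The log2 fold change was 1.153 (SE 0.29), and it was 0.83 without labelled Atf3-/-FS6KD replicate 3. It was 0.68 from replicates 1 and 2 alone and 1.61 from replicates 3 and 4 alone, so that its size, unlike its sign, moved with the libraries used.

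Among the AAV hearts Lgals3 was at 15.96, 9.54 and 12.1 CPM in the libraries labelled shCtrl and at 5.13, 5.35 and 5.74 CPM in those labelled shAtf3. The labelled knockdown libraries lay close together and all below the labelled controls. The log2 fold change was -1.22 (SE 0.18), a 2.32-fold lower level, and it stayed between -1.38 and -1.002 with any 1 of the 6 libraries left out. The difference between the experiments was 2.37 (SE 0.40), and with the AAV groups exchanged it was -0.050 (SE 0.40).

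Gpnmb and Trem2 had smaller fold changes of the same signs. Gpnmb was at 4.16, 2.59, 2.29 and 2.56 CPM in the libraries labelled Atf3+/+FS6KD and at 3.34, 4.52, 4.33 and 3.33 CPM in those labelled Atf3-/-FS6KD. The genotypes overlapped through labelled wild-type replicate 1, the library that also had the highest Spp1 level and the highest Atf3 count of its group, and the log2 fold change was 0.43 (SE 0.21) with that library and 0.65 without it. After the AAV, Gpnmb was at 6.13, 4.75 and 5.59 CPM in the libraries labelled shCtrl and at 2.46, 4.04 and 3.57 CPM in those labelled shAtf3. These groups did not overlap, at a log2 fold change of -0.71 (SE 0.18).

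Trem2 was at 0.98, 0.71, 1.59 and 1.14 CPM in the libraries labelled Atf3+/+FS6KD and at 1.37, 1.65, 1.74 and 1.78 CPM in those labelled Atf3-/-FS6KD (log2 fold change 0.54, SE 0.24). The genotypes overlapped through labelled wild-type replicate 3. It was at 1.91, 2.03 and 2.63 CPM in the libraries labelled shCtrl and at 1.36, 1.12 and 1.67 CPM in those labelled shAtf3, with no overlap and a difference of -0.66 on the log2 scale (SE 0.20). With its copy added, Trem2 ranged from 1.42 to 5.25 CPM over the 14 libraries.

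Fabp5 and Ctsd had fold changes close to 1 in both experiments, and Cd9 in the knockout experiment. Cd9 ranged from 32.1 to 39.4 CPM in the libraries labelled Atf3+/+FS6KD and from 33.0 to 44.3 CPM in those labelled Atf3-/-FS6KD (log2 fold change 0.14, SE 0.10). After the AAV it was at 48.3, 50.1 and 35.8 CPM in the libraries labelled shCtrl and between 32.6 and 37.1 CPM in those labelled shAtf3 (0.79-fold, log2 fold change -0.35, SE 0.12). Labelled shCtrl replicate 3 alone overlapped with the labelled knockdown, and without it the log2 fold change of Cd9 was -0.48.

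Fabp5 overlapped in both experiments, at 29.1 to 41.2 CPM in the libraries labelled Atf3+/+FS6KD, 30.0 to 41.0 CPM in those labelled Atf3-/-FS6KD, 28.8 to 39.8 CPM in those labelled shCtrl and 31.5 to 37.6 CPM in those labelled shAtf3. Its log2 fold changes were 0.06 (SE 0.13) and -0.02 in the knockout and AAV experiments. Ctsd ranged from 1619 to 2089 CPM in the libraries labelled Atf3+/+FS6KD and from 1572 to 1761 CPM in those labelled Atf3-/-FS6KD (log2 fold change -0.11, SE 0.08). Its level in the AAV hearts was 1783, 1780 and 1889 CPM in the libraries labelled shCtrl and 1699, 1699 and 1756 CPM in those labelled shAtf3, a small difference without overlap (log2 fold change -0.08, SE 0.05).

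Over the 7 members, the median log2 fold change was 0.43 in the knockout experiment and -0.66 in the AAV experiment, beside medians of 0.00 over all genes tested in both. Without Spp1 the medians of the other 6 were 0.28 and -0.50. No overlap between the genotypes was seen for 2 members, Spp1 and Lgals3, both higher in the labelled knockout, and 3.07% of all 15592 genes tested were higher there without overlap, beside 2.65% lower. In the AAV experiment 5 members (Spp1, Lgals3, Gpnmb, Trem2 and Ctsd) were lower in the labelled knockdown without overlap, and 9.95% of all genes were, beside 8.45% higher. Over all genes edgeR's quasi-likelihood test called 0 (0%) in the knockout experiment at the threshold of 0.05 on the Benjamini-Hochberg adjusted p, with 1575 (10.1%) at an unadjusted p under 0.05, where limma-trend also called 0 and DESeq2 called 208. The AAV experiment had 1933 of 15225 genes (12.7%) at an unadjusted p under 0.05. There edgeR called 82 (0.539%), limma-trend 85 and DESeq2 308.

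**Figure D2:**
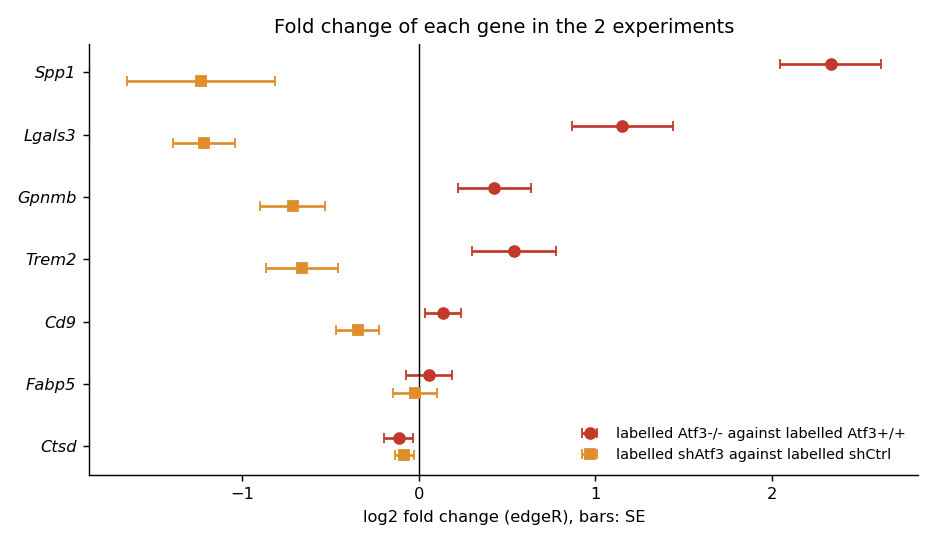
Log2 fold changes of the 7 genes from edgeR with SE bars, circles for the libraries labelled Atf3-/-FS6KD against those labelled Atf3+/+FS6KD and squares for those labelled shAtf3 against those labelled shCtrl. The pairs stand farthest apart for Spp1, at 2.33 and -1.23, and lie side by side for Fabp5 and Ctsd.

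The summed level of the 8 macrophage markers differed between the groups by less than Spp1 did. Labelled wild-type hearts had 228 ± 30.1 CPM (192 to 254) and labelled knockout hearts 272 ± 45.9 CPM (212 to 321), with overlap through labelled knockout replicate 1 alone (SD, n = 4 each). Labelled shCtrl hearts had 320 ± 7.56 CPM (315 to 328) and labelled shAtf3 hearts 281 ± 5.74 CPM (276 to 287), with no overlap (SD, n = 3 each). Set against this sum, Spp1 was at 0.45 ± 0.26 CPM per 100 CPM of macrophage markers in the labelled wild type (0.30 to 0.83) and at 1.804 ± 0.390 in the labelled knockout (1.37 to 2.19), again without overlap. For the AAV hearts the ratio was 1.34 ± 0.56 in the libraries labelled shCtrl (0.96 to 1.98) and 0.66 ± 0.36 in those labelled shAtf3 (0.26 to 0.94), with the nearest libraries of the groups close together. Lgals3 per 100 CPM of the markers was 1.87 ± 0.69 in the labelled wild type (1.205 to 2.85) and 3.33 ± 1.19 in the labelled knockout (2.26 to 4.99), which overlapped, unlike its CPM. It was 3.91 ± 0.92 in the libraries labelled shCtrl (3.02 to 4.86) and 1.92 ± 0.13 in those labelled shAtf3 (1.78 to 2.04), without overlap. The same ratio of Gpnmb overlapped between the genotypes, at 1.32 ± 0.57 and 1.43 ± 0.14, and was 1.71 ± 0.19 and 1.197 ± 0.311 in the libraries labelled shCtrl and shAtf3. The share of these differences that goes with the number of macrophages was not tested.

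**Figure D3:**
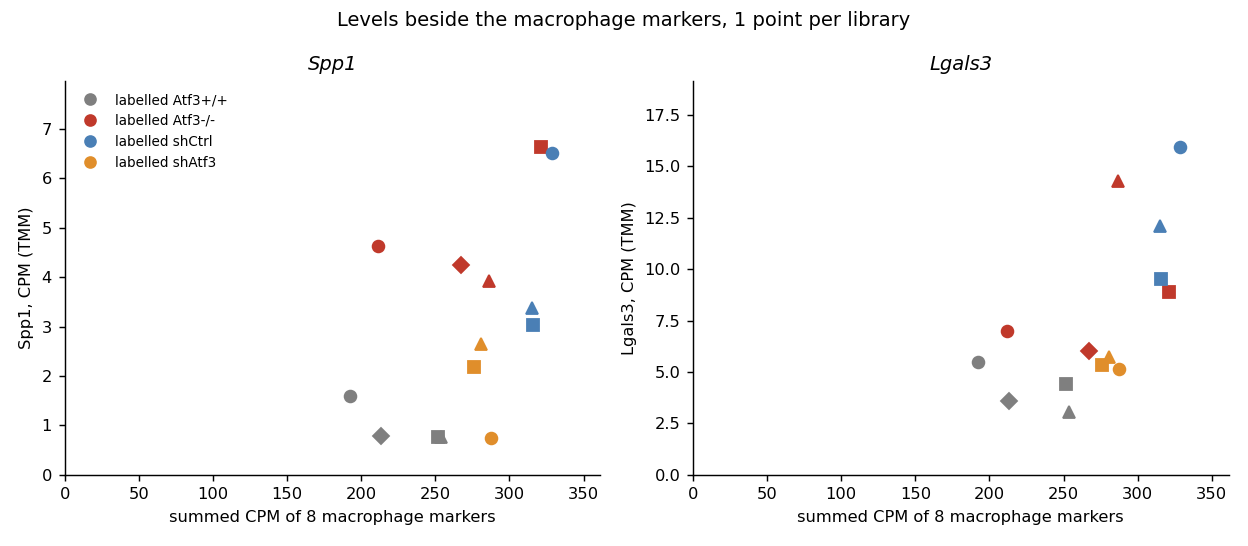
Level of Spp1 (left) and Lgals3 (right) in CPM against the summed CPM of 8 macrophage markers, 1 point per library with colour for the labelled group and symbol shape for the replicate number, both axes linear from 0. The marker levels of the libraries labelled Atf3+/+FS6KD and Atf3-/-FS6KD (192 to 254 and 212 to 321 CPM) overlap only through labelled Atf3-/-FS6KD replicate 1. Every other library labelled Atf3-/-FS6KD lies above all those labelled Atf3+/+FS6KD in the markers, and all of them do in Spp1.

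Of the markers of other cells, the summed fibroblast markers were at 1078 ± 100 CPM (986 to 1221) in the libraries labelled Atf3+/+FS6KD and 1286 ± 209 CPM (1124 to 1561) in those labelled Atf3-/-FS6KD, with overlap (SD, n = 4 each). They were at 1354 ± 177 CPM (1160 to 1507) in those labelled shCtrl and 1051 ± 87.0 CPM (961 to 1135) in those labelled shAtf3, without overlap (SD, n = 3 each). Neutrophil markers summed to at most 7.66 CPM, lymphocyte markers to at most 4.19 CPM, dendritic cell markers to at most 3.22 CPM and adipocyte markers to at most 1.86 CPM in any library. Endothelial markers summed to means of 648 to 776 CPM, smooth muscle markers to 65.4 to 88.8 CPM and erythrocyte markers to 191 to 309 CPM over the 4 groups, and each of these sums overlapped between the groups of both experiments. The part of these cells in the levels of the members was not tested.

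Receptors of osteopontin were counted next, over 10 genes that were all tested. In the knockout experiment 0 of the 10 passed the edgeR test (1 at an unadjusted p under 0.05, where 10.1% of all genes were), 8 had a positive fold change and the list median was 0.06. Cd44, the hyaluronan receptor, had a log2 fold change of 0.29 (SE 0.17), Itgav, the alpha-v integrin chain, 0.09 (SE 0.06), and Itgb3, its beta-3 partner, 0.71 (SE 0.18), the last without overlap between genotypes and called by DESeq2 (adjusted p = 0.0406) but not by limma-trend. After the AAV 1 of the 10 fell, where 82 of all 15225 genes tested (0.539%) were called in either direction, and 9 had a negative fold change, with a list median of -0.18. The gene that fell was Itgb5, the beta-5 partner of Itgav, at 208 ± 14.4 CPM in the libraries labelled shCtrl and 150 ± 5.10 CPM in those labelled shAtf3 (log2 fold change -0.47, SE 0.07, adjusted p = 0.0299, edgeR). Its call held in 1 of the 6 fits with 1 library left out, the one without labelled shCtrl replicate 3. Cd44, Itgav and Itgb3 had log2 fold changes of -0.42, -0.16 and -0.39.

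Of 15 genes of Trem2 signalling and lipid-associated macrophages, 13 were tested and 0 passed in either experiment by edgeR, with 6 and 5 at an unadjusted p under 0.05, beside 10.1% and 12.7% of all genes. limma-trend also called 0, and DESeq2 called 0 in the knockout experiment and 2 (Apoe and Axl) in the AAV experiment. Over all genes tested DESeq2 called 208 of 15592 and 308 of 15225. In the knockout experiment 8 of the 13 were positive, with a median of 0.15, and in the AAV experiment 11 were negative, with a median of -0.23. Tyrobp, the adaptor of Trem2, had log2 fold changes of 0.30 (SE 0.12) and -0.27 (SE 0.08). Apoe, a lipid carrier that Trem2 binds, had 0.36 (SE 0.11) and -0.28 (SE 0.07), and Lpl, which cardiomyocytes also express strongly, had -0.18 (SE 0.06) and -0.04 (SE 0.06). Cst7 and Hcst did not pass the filter on low values.

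The lysosomal company of Ctsd and Gpnmb lay near 0. Of 22 lysosomal hydrolases and membrane proteins, 0 passed the edgeR test in either experiment (3 and 7 at an unadjusted p under 0.05, beside 10.1% and 12.7% of all genes), 14 were positive in the labelled knockout with a median of 0.04, and 19 were negative in the labelled shAtf3 hearts with a median of -0.07. DESeq2 called 0 of these in the knockout experiment and 3 in the AAV experiment, where it called 308 of all 15225 genes, and limma-trend 0 in both. The proteases Ctsb and Ctsl had log2 fold changes of -0.01 and 0.03 in the knockout experiment and -0.08 and -0.07 in the AAV experiment, and Psap, the saposin precursor, had -0.10 and 0.01. Of the MiT/TFE factors that drive lysosomal genes, Tfeb, Tfe3 and Mitf were tested and 0 passed by edgeR, DESeq2 or limma-trend (0 and 1 at an unadjusted p under 0.05, with the same shares of all genes), at medians of 0.10 and 0.09. Tfeb had 0.15 and 0.09, Tfe3 0.10 and 0.02, and Mitf -0.14 (SE 0.06) and 0.21 (SE 0.07), the last without overlap in either experiment.

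Among relatives of the members by protein family, 0 of 10 tested genes passed in the knockout experiment and 0 of 9 in the AAV experiment by edgeR (2 and 3 at an unadjusted p under 0.05, beside 10.1% and 12.7% of all genes), at medians of 0.02 and -0.06. limma-trend also called 0 in both, and DESeq2 called 1, Ctse, in the knockout experiment, where it called 208 of all 15592 genes, and 0 in the AAV experiment. The galectins Lgals1, Lgals8 and Lgals9 had log2 fold changes of -0.29 (SE 0.15), 0.03 (SE 0.07) and 0.21 (SE 0.09) in the knockout experiment and of -0.23 (SE 0.10), -0.02 (SE 0.06) and -0.14 (SE 0.09) in the AAV experiment. Ibsp and Dmp1, which belong to the same family of secreted phosphoproteins as Spp1, did not pass the filter on low values.

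Of 17 resident macrophage markers, 0 passed the edgeR test in either experiment (4 and 6 at an unadjusted p under 0.05, beside 10.1% and 12.7% of all genes), 13 were positive in the labelled knockout (median 0.27) and 12 were negative in the labelled shAtf3 hearts (median -0.16). DESeq2 called 2 of them, Mertk and Cx3cr1, in the knockout experiment, where it called 208 of all 15592 genes, and 0 in the AAV experiment, and limma-trend 0 in both. Adgre1, Csf1r and Mrc1 had log2 fold changes of 0.36, 0.13 and 0.16 in the knockout experiment and of -0.21, -0.16 and -0.07 in the AAV experiment. The 4 negative ones in the knockout experiment were Timd4 (-0.25), Cd163 (-0.11), F13a1 (-0.11) and Folr2 (-0.07), and Lyve1 had 0.07. In the AAV experiment the 5 positive ones were Timd4 (0.01), Cd163 (0.28), F13a1 (0.04), Folr2 (0.05) and Lyve1 (0.12). Of 8 markers of recruited monocytes, 7 were tested in the knockout experiment and 6 in the AAV experiment and 0 passed by edgeR, DESeq2 or limma-trend (2 and 1 at an unadjusted p under 0.05 in edgeR, with the same shares of all genes), with 6 of 7 positive (median 0.31) and 5 of 6 negative (median -0.20). Ccr2, the chemokine receptor of recruited monocytes, was at 2.32 ± 0.63 CPM in the labelled wild type and 4.29 ± 1.202 CPM in the labelled knockout (log2 fold change 0.89, SE 0.27, overlapping), and its log2 fold change in the AAV experiment was -0.27 (SE 0.27). Ly6c2 had -0.04 and 0.02, and Itgam 0.31 and -0.04.

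Genes of fibroblast activation had the largest list medians of the 8 lists, 0.62 in the knockout experiment and -0.95 in the AAV experiment over 10 genes. In the knockout experiment 0 of 10 passed by edgeR or limma-trend, with 6 at an unadjusted p under 0.05 in edgeR, where 10.1% of all genes were, and 9 were positive. The 1 negative gene was Acta2, at 205 ± 130 CPM in the labelled wild type and 97.4 ± 37.6 CPM in the labelled knockout. Its log2 fold change was -1.07 (SE 0.49, overlapping), and -0.10 (SE 0.19) in the AAV experiment. Tgfb1 and Ccn2 had 0.19 (SE 0.13) and 0.13 (SE 0.27) in the knockout experiment. DESeq2 called 208 of all 15592 genes in the knockout experiment, and 5 of this list, Col1a1 (adjusted p = 0.0451), Col3a1 (adjusted p = 0.000176), Fn1 (adjusted p = 0.00123), Lox (adjusted p = 0.00981) and Cthrc1 (adjusted p = 0.0337). The same 5 were higher in the labelled knockout without overlap, where 3.07% of all genes tested were, and 8 of 10 were lower without overlap in the labelled knockdown, where 9.95% were. With the AAV 5 of 10 fell in the labelled knockdown: Postn, encoding periostin, by 1.14 (adjusted p = 0.0299), Col1a1 by 0.84 (adjusted p = 0.0293), Col3a1 by 1.05 (adjusted p = 0.0328), Fn1, encoding fibronectin, by 0.78 (adjusted p = 0.0299), and Ccn2, a matricellular growth factor, by 0.71 on the log2 scale (adjusted p = 0.0463, all edgeR). Each of the 5 lost its call without any 1 of the libraries labelled shAtf3 or without labelled shCtrl replicate 2, where adjusted p rose to between 0.0710 and 0.229, and Ccn2 also without labelled shCtrl replicate 1 (adjusted p = 0.0651, edgeR). The difference between the experiments was called for 26 of 15708 genes (0.166%), and it passed for Col1a1 at 1.47 (adjusted p = 0.0348), Col3a1 at 1.76 (adjusted p = 0.0140), Fn1 at 1.39 (adjusted p = 0.0144) and Cthrc1, a secreted collagen triple helix protein with a copy on an alternate locus, at 3.14 on the log2 scale (adjusted p = 0.0341, all edgeR). Cthrc1 lay near the filter of 1 CPM, at means of 0.42 CPM in the labelled wild type and 1.07 CPM in the labelled knockout. Its means were 1.58 and 0.45 CPM in the libraries labelled shCtrl and shAtf3. The difference for Col3a1 and Fn1 was called in 12 of 14 fits with 1 library left out, the exceptions being those without labelled shAtf3 replicate 1 or 2 (adjusted p = 0.0588 and 0.0640 for both genes), whereas Col1a1 and Cthrc1 were each called in 6. With the AAV groups exchanged the 4 differences were -0.21 for Col1a1, -0.33 for Col3a1, -0.16 for Fn1 and -0.36 for Cthrc1, and edgeR called 0 genes (651 at an unadjusted p under 0.05, 3 with DESeq2 and 0 with limma-trend).

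**Figure D4:**
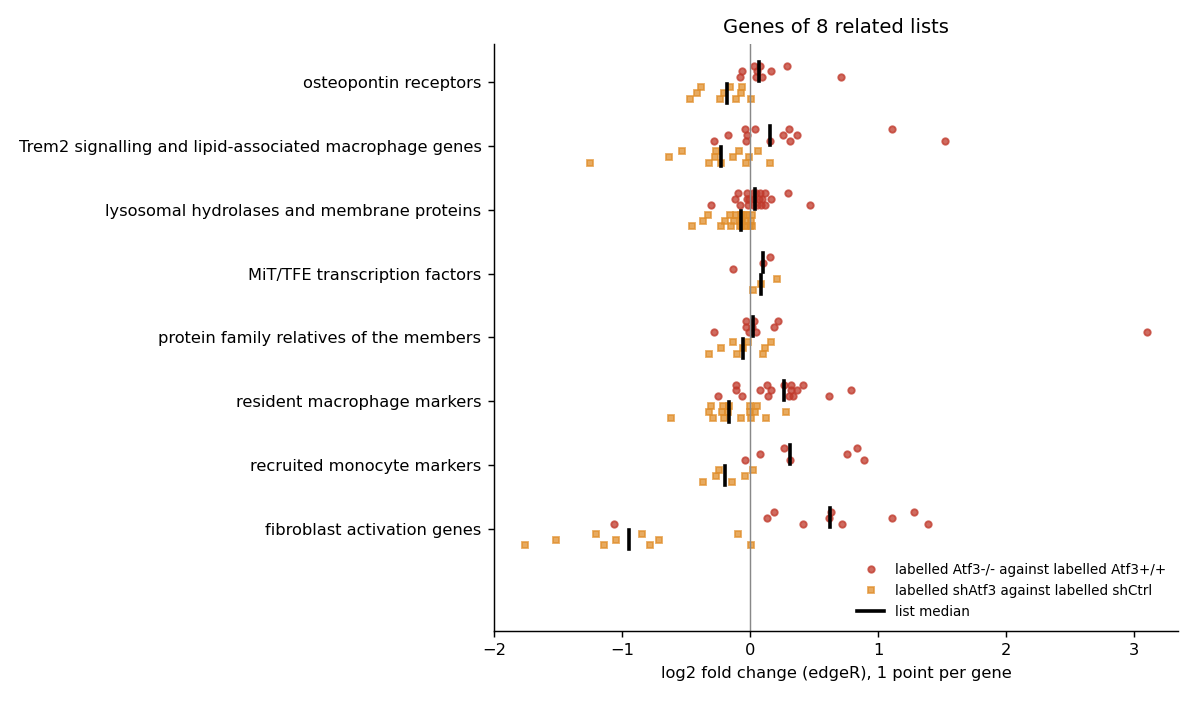
Log2 fold change of each tested gene of 8 related lists, circles for the knockout experiment and squares for the AAV experiment, with a black bar at each list median. The medians of fibroblast activation genes stand apart at 0.62 and -0.95, lysosomal genes lie close to 0, and the single circle past 3 is Ctse, a gene at 0.14 CPM on average in the labelled wild type.

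The genes whose level followed Spp1 most closely over the 14 libraries, after centring on the mean of each experiment, were Nfkb2 (Pearson r = 0.91 of log2 CPM), Slc30a4 (0.90, with its identical copy on an alternate locus), Cmtm3 (0.89) and Tbc1d20 (0.88), among 13365 genes ranked. Nfkb2 encodes an NF-kappa-B subunit and Slc30a4 a zinc transporter. Gpnmb had rank 33 (r = 0.83) and Lgals3 rank 48 (r = 0.81), and Trem2 had rank 857 (r = 0.60), Cd9 rank 1534 (r = 0.51), Fabp5 rank 4922 (r = 0.15) and Ctsd rank 9876 (r = -0.32). All libraries carry the labelled group differences, which such a coefficient includes. With each library taken against the mean of its own group, r with Spp1 was 0.49 for Nfkb2, 0.71 for Slc30a4, 0.54 for Cmtm3 and 0.83 for Tbc1d20, and it was 0.82 for Gpnmb, 0.38 for Lgals3 and -0.11 for Trem2.

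**Figure D5:**
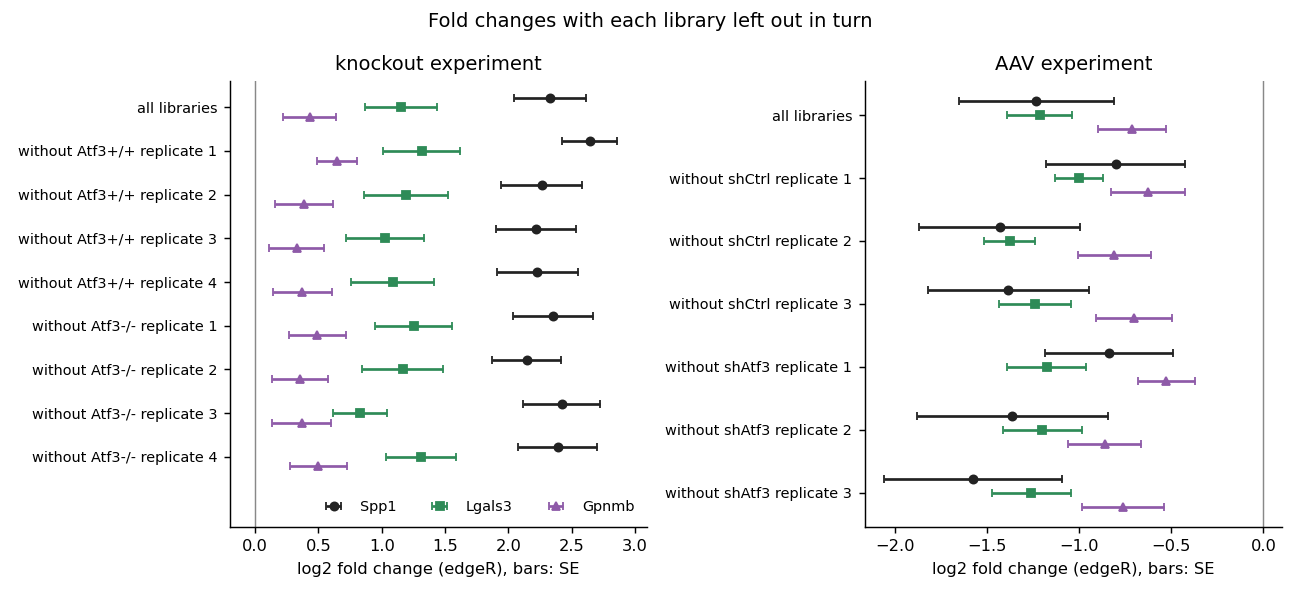
Log2 fold change of Spp1, Lgals3 and Gpnmb with SE bars (edgeR), with all libraries and with each library left out in turn, in the knockout experiment (left) and the AAV experiment (right). Spp1 stays between 2.15 and 2.64 in the knockout experiment and between -1.58 and -0.80 in the AAV experiment.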

How the data were processed

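Bulk RNA-seq of 14 hearts was analysed. The authors deposited 2 tables of 1 estimated count per gene and library, neither normalised nor pooled. Per the labels they were counted with featureCounts 2.0.0 on GRCm38.p6, and the libraries were stranded, while the aligner and the strand setting of the counting are not given in the sources used here. Counts were rounded to whole numbers, where the planned design had assumed whole counts. Of 98 member values, 4 were not whole.

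A gene was tested where it exceeded 1 CPM in any library of the comparison, with edgeR 4.0.16 in R 4.3.3 (TMM, quasi-likelihood, two-sided, Benjamini-Hochberg adjusted p below 0.05 over all genes tested) on the 2 groups of an experiment. The difference between experiments was an interaction in 1 fit of 14 libraries. CPM are TMM-normalised, and correlations used log2 CPM with a prior count of 2. limma 3.58.1 and DESeq2 1.42.0 served as alternatives, and the AAV groups were exchanged in 1 alternative added after the data were seen. The fits were tested on simulated counts. Total counts per library ranged from 30085432 to 134920825, and an exact 95% Poisson interval covers counting error only. All deposited columns were used. Groups followed the GEO labels. The study describes its knockout hearts as biological replicates. For the AAV hearts nothing says so, and p-values there measure the spread between these samples, which may be technical.

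The members and lists were chosen with earlier results of these data known, and no p-value is given for a member. Named beside the members were Atf3, Ndufs6, the first 3 tested genes of each of 8 lists in their written order and every list gene that passed the test. In addition, 10 lists of cell type markers were summed. Ctse was named after its value was seen, as were the genes noted for lack of overlap, as called by DESeq2, or for the sign or size of their fold change within their list. No protein sequence was used.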

Additional observations from a re-analysis of the deposited data

Results flagged for a closer look

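Labelled Atf3+/+FS6KD replicate 1 stood far from the other 3 libraries of its group in 2 of the 7 members, with Spp1 at 1.602 CPM and Gpnmb at 4.16 CPM, where the gap to the next library took more than the share of the range that Dixon's test allows for 4 libraries. Of 14 such groups examined 2 were picked out, and chance picks out about 1 in 20. The same library had 25.8 CPM of Atf3, against 6.35 to 6.91 CPM in the others of its group.

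Spp1 and Lgals3 lay in opposite directions in the experiments, with every labelled knockout library above every labelled wild-type library and every library labelled shAtf3 below every library labelled shCtrl. The differences of the log2 fold changes, knockout minus AAV, were 3.56 and 2.37, and they are given with no test because the genes were chosen on this contrast.

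The interaction in edgeR picked out 4 genes of fibroblast activation, with differences of 1.47 for Col1a1, 1.76 for Col3a1, 1.39 for Fn1 and 3.14 for Cthrc1 on the log2 scale, the last at group means of only 0.42 to 1.58 CPM. If the column names of the AAV table rather than the labels are right, the AAV fold changes of all 6 genes change sign and these differences do not stand as given. With the AAV groups exchanged, an alternative chosen after seeing the data, the differences were 1.12 for Spp1, -0.050 for Lgals3, -0.21 for Col1a1, -0.33 for Col3a1, -0.16 for Fn1 and -0.36 for Cthrc1, of which edgeR called 0 among the 4 genes of fibroblast activation.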

How the results depend on the processing

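Of 406 alternative values, with the groups as labelled, of the members' fold changes, 396 lay within the spread between replicates of the value reported, and Spp1, Lgals3, Gpnmb and Trem2 kept their signs in all of them. With replicates 1 and 2 of the knockout experiment alone and with replicates 3 and 4 alone, the log2 fold change moved to 0.68 and 1.61 for Lgals3 and to 0.031 and -0.25 for Ctsd, and the difference between experiments to 1.89 and 2.83 for Lgals3 and to 0.11 and -0.17 for Ctsd. Scaling by library size alone moved Ctsd to -0.12 in the AAV comparison and to 0.069 in the difference. With a replicate block in the AAV comparison Lgals3 was at -1.19, and of the 6 list genes called there Postn kept its call while Itgb5, Col1a1, Col3a1, Fn1 and Ccn2 had adjusted p between 0.0612 and 0.0810 (edgeR).

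The number of genes called in the knockout comparison was 0 as reported, 2 with no filter, 208 with DESeq2, 8 with replicates 3 and 4 alone and 0 to 15 with 1 library left out, the highest without labelled Atf3+/+FS6KD replicate 1 or Atf3-/-FS6KD replicate 3. In the AAV comparison it was 82 as reported, 304 with no filter, 308 with DESeq2, 20 with the replicate block and 1 to 285 with 1 library left out. For the difference it was 26 as reported, 61 with no filter, 205 with library size alone, 669 with DESeq2, 48 with limma-trend, 56 with the replicate block, 43 with copies merged, 53 with the depth batch as a term, 71 and 63 with replicates 1 and 2 or 3 and 4 alone and 0 to 168 with 1 library left out. With the AAV groups exchanged, which was chosen after seeing the data, the difference moved to 1.12 for Spp1, -0.050 for Lgals3, -0.28 for Gpnmb, -0.12 for Trem2, -0.20 for Cd9 and -0.19 for Ctsd, and it changed sign to -0.21 for Col1a1, -0.33 for Col3a1, -0.16 for Fn1 and -0.36 for Cthrc1. That fit called 0 genes (edgeR, 651 at an unadjusted p under 0.05, 3 with DESeq2 and 0 with limma-trend). The cause of the other moves was not tested. Libraries with the same replicate number did not deviate together in every pair (r of 0.05 to 0.19 for the knockout pairs and of -0.06 to 0.16 for the AAV pairs), so the numbers were not taken to pair them. At 25 reads in labelled Atf3+/+FS6KD replicate 2 and labelled shAtf3 replicate 1, counting error limits the level of Spp1.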
